A study of Homo sapiens with 4 samples.

Results

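The chromatin contacts of 4 RNAs, EEF1E1, EEF1E1-BLOC1S5, AARS and CARS, were examined out of 2637 RNAs measured by GRID-seq in K562 cells. They were chosen by symbol, and with earlier results of these data known. The EEF1E1 pair was taken because of its large score difference at 1 distal enhancer, so that difference is given below as a description. Together the 4 RNAs had 155 of the 115357 connections in the table. A connection is a pair of an RNA and an active enhancer or promoter. The working name of the group is tRNA synthetase complex RNAs, which the known biology of its members does not bear out. AARS encodes alanyl-tRNA synthetase and CARS encodes cysteinyl-tRNA synthetase, and both enzymes work outside the multi-synthetase complex. EEF1E1, also called AIMP3, encodes a small protein without synthetase activity that belongs to that complex. EEF1E1-BLOC1S5 is a readthrough transcript that joins EEF1E1 to its downstream neighbour BLOC1S5. The RNAs are therefore called by their own names.

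Aminoacyl-tRNA synthetases load each amino acid onto its tRNA and so set the accuracy of translation. In human cells several of them are held in 1 large complex that also contains proteins without synthetase activity, EEF1E1 among them, while others, such as the alanyl and cysteinyl enzymes, act alone. GRID-seq says nothing of these proteins: it joins an RNA still lying on chromatin to the DNA beside it by way of a linker ligated within cross-linked nuclei, and sequencing then reads both ends of the joined molecule. RNAs caught this way are mostly found near the gene they are transcribed from and along its chromosome.

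The cells were K562, a human leukaemia line. One genotype carried RUNX1 R320*, which ends this blood transcription factor early within its C-terminal region, and the other was wild type (WT), with 2 libraries each. Cells of both genotypes were grown in the same medium and cross-linked in sequence, first for 45 minutes in 2 mM DSG and afterwards for 10 minutes in 3% formaldehyde. The labels do not state whether the libraries came from separate cultures, or how many clones stand behind the mutant cells. The table gives 1 score per connection and genotype, pooled over libraries, so no difference has a replicate spread or a test, and every SD below is over connections. Depth is unknown, as is the scale of the score. A score is at least 1.2 or it is 0, and 0 is read as not listed. Over the series, 84992 connections were listed in R320* and 82454 in WT, with median scores of 1.73 and 1.71. Over the 52089 connections listed in both, the median difference, R320* minus WT, was 0.0394 (SD 0.247).

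Each RNA met the promoter element at its own start in both genotypes. For CARS the window of 250 bases before to 50 bases after the start is shown, and that element covers it. The window is 1 of 2 that RefSeq gives for the gene. All 4 genes lie on the minus strand, and the sequence is from RefSeq (GRCh38.p14), 5′ to 3′ along the gene. The CARS window (CARS1 in RefSeq) is chr11:3057374-3057673. Capitals mark matches to 3 motifs searched on both strands, chosen after promoter sequences were seen. They are the CCAAT box, the RUNX core with the letters TGTGGT, and TGATGCAA, a core bound by dimers of CEBP and ATF factors.
CARS: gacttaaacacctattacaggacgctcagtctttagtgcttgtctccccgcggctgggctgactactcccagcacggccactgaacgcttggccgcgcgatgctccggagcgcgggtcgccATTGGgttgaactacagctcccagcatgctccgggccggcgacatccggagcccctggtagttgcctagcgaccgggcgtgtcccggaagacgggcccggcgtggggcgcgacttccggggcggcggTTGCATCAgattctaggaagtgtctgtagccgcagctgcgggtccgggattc
The window held the reverse complement of CCAAT at base 122 and that of TGATGCAA at base 249, and the letters TGTGGT were not in it. Of all 35116 RefSeq windows of this length, 34.6% held CCAAT, 13.1% held TGTGGT and 0.866% held TGATGCAA. The matches did not overlap each other. These matches describe letters only.

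The numbers of elements met in R320* and in WT were within 2-fold of each other for each of the 4 RNAs. EEF1E1 (ENSG00000124802.12, chromosome 6, 8073360 to 8102548 on the minus strand) met 25 elements in R320* and 20 in WT, a log2 ratio of 0.32. EEF1E1-BLOC1S5 (ENSG00000265818.1, chromosome 6, 8013567 to 8102595, called protein-coding in the deposited table and a long noncoding RNA in RefSeq) met 53 in R320* and 57 in WT, a log2 ratio of -0.10. Counted by element, the pair met 54 in R320* and 57 in WT (log2 ratio -0.08). AARS (ENSG00000090861.15, chromosome 16, 70252298 to 70289506) met 17 in R320* and 21 in WT, a log2 ratio of -0.30. CARS (ENSG00000110619.17, chromosome 11, 3000929 to 3057423) met 34 in R320* and 27 in WT, a log2 ratio of 0.33. Among the 1293 RNAs with a mean of at least 25 connections, 0.619% had at least 2-fold more in R320* and 0.619% at least 2-fold fewer, and the median log2 ratio was 0.08. EEF1E1 and AARS, with means of 22.5 and 19 connections, lie under that minimum.

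All 155 connections lay on the RNA's own chromosome. Over all connections, 19% were in trans, although 1766 of the 2637 RNAs had no trans connection either. The 4 RNAs differed in how far the lists of the genotypes overlapped. Of 35 CARS elements 26 (74.3%) were listed in both, while 8 were found in R320* only and 1 in WT only. AARS had the opposite balance, with 15 of 23 (65.2%) in both, beside 2 in R320* only and 6 in WT only. The pair had 45 of 66 (68.2%) in both, beside 9 in R320* only and 12 in WT only. EEF1E1 alone had 13 of 32 (40.6%) in both, beside 12 in R320* only and 7 in WT only. Among all local and cis connections, the corresponding shares were 53% in both genotypes, 25.5% in R320* alone and 21.5% in WT alone. The share in both fell with distance from the gene, so these shares are not at a like distance. At 100 kb to 1 Mb the share in both was 61.1% over all RNAs with a position. There it was 88.5% for the pair, 53.8% for AARS and 72% for CARS. Enhancers made up 46 of the 66 elements of the pair, 10 of 23 for AARS and 18 of 35 for CARS, and the rest were promoters.

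**Figure D1:**
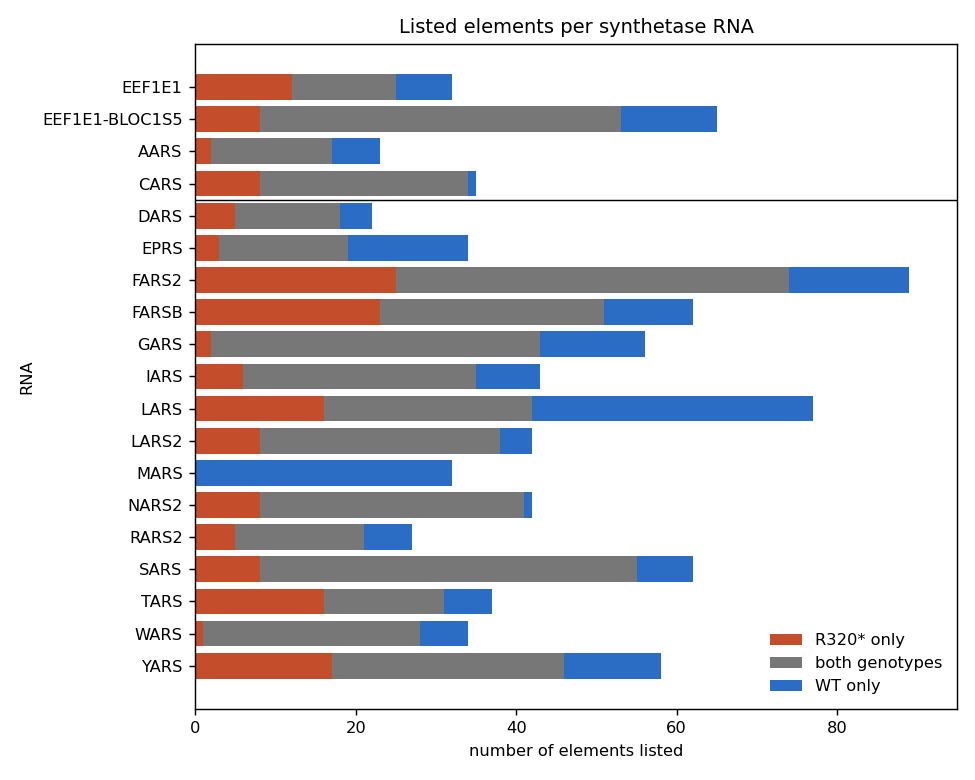
Number of elements listed per RNA (horizontal axis) for the 4 RNAs above the line and 15 other synthetase and complex RNAs below it, split into R320* only, both genotypes and WT only. CARS has 8 elements in R320* only and 1 in WT only, AARS has 2 and 6, and MARS is listed in WT only.

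Scores of connections listed in both genotypes were mostly close, with more of them lower than higher in R320* for the EEF1E1 pair. Over its 45 elements in both genotypes, the pair was higher in R320* at 15 and lower at 30, with a median difference of -0.08 (SD 0.445, from -2.26 to 0.673). The pair's difference at an element is the mean over those of its RNAs listed there in both genotypes. An RNA listed there in 1 genotype does not enter it. Over all connections listed in both genotypes, 58.6% were higher in R320*. AARS was higher in R320* at 11 of 15 elements (median difference 0.117, SD 0.268, from -0.376 to 0.610). CARS was higher at 15 of 26, near the share over all connections (median difference 0.0438, SD 0.284, from -0.400 to 0.761). Each median lies within 1 SD of 0 and of the table's median. That SD is the spread of single connections and not the uncertainty of a median, so it cannot show whether a median is shifted. Of the 99 connections of the 4 RNAs listed in both, 2 differed by at least 1 unit, both lower in R320* and both at 1 enhancer. Over all connections listed in both genotypes, 0.175% differed by at least 1 unit, 0.0749% being lower in R320* and 0.0998% higher.

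**Figure D2:**
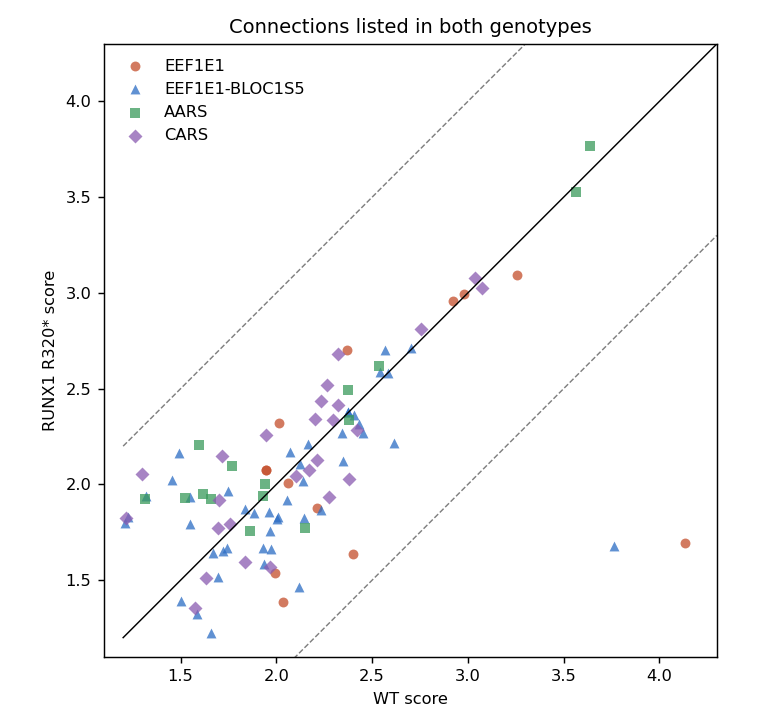
Deposited score in R320* (vertical axis) against WT (horizontal axis) for each connection of the 4 RNAs listed in both genotypes. The solid line is equality and the dashed lines mark a difference of 1 unit, and the 2 points outside them are EEF1E1 and EEF1E1-BLOC1S5 at the enhancer 117 kb upstream of EEF1E1.

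That enhancer lies at chr6:8219241-8219569, a 329 bp element inside the long noncoding gene AL355499.1, 117 kb upstream of EEF1E1. EEF1E1 RNA scored 1.70 there in R320* and 4.13 in WT, a difference of -2.44. EEF1E1-BLOC1S5 RNA scored 1.68 in R320* and 3.76 in WT, a difference of -2.09. In WT it was the highest-scoring element of both RNAs, whereas in R320* it was number 18 of 25 for EEF1E1 and number 36 of 53 for the readthrough RNA. The difference of EEF1E1 was the lowest of all 52089 connections in both genotypes and that of the readthrough RNA the fourth lowest, which is why the pair was taken. EEF1E1 lies wholly inside the readthrough gene, so these are not 2 independent observations.

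Set beside connections at a like distance, the WT scores at this enhancer were among the highest and the R320* scores were not. Among the 33245 WT connections between 100 kb and 1 Mb from their gene, 2 scored as high as EEF1E1 did, counting EEF1E1, and 7 as high as the readthrough RNA. Among the 34830 R320* connections at that distance, 20343 scored at least as high as EEF1E1 did in R320*. As the pair was chosen for its difference at this enhancer, these ranks only describe that choice. No RNA other than these met the enhancer in either genotype, so no other RNA shows how the element itself compares. A nearer enhancer in the same noncoding gene (8108024 to 8109003), about 5 kb upstream of EEF1E1, was met by 6 other RNAs and not listed for the pair in either genotype.

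On their own genes the pair's scores were high and nearly equal in both genotypes. At the enhancer inside EEF1E1 (8080816 to 8087886), EEF1E1 scored 2.99 in R320* and 2.98 in WT, and the readthrough RNA 2.71 and 2.70. At the EEF1E1 promoter (8098993 to 8103379), EEF1E1 scored 2.96 in R320* and 2.92 in WT, and the readthrough RNA 2.59 and 2.54. The BLOC1S5 promoter (8062576 to 8065694) belongs to a gene for a subunit of the BLOC-1 complex of lysosome-related organelles. It lies on the readthrough gene but 7.67 kb downstream of EEF1E1. There EEF1E1 scored 3.10 in R320* and 3.26 in WT, and the readthrough RNA 2.58 in both. Other RNAs scored lower on these elements and moved in and out of the list. At the EEF1E1 promoter TMEM14B scored 1.75 in R320* and 2.02 in WT, and SYCP2L 1.80 and 1.46.

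Between 100 kb and 1 Mb downstream of the readthrough gene, the pair's differences were mostly negative at elements listed in both genotypes. Of the 31 table elements in that stretch the pair met 23. Of the 20 listed in both genotypes, 4 were higher in R320* and 16 lower (median difference -0.190, from -0.480 to 0.588). By listing, EEF1E1 went the other way. At that distance downstream of its own gene, it met 13 elements in R320* and 8 in WT. An element where EEF1E1 was missing from a genotype entered the differences through the readthrough RNA. The 4 BMP6 enhancers described below, which EEF1E1 met in R320* alone, were counted as lower in this way. Over all RNAs, connections at 100 kb to 1 Mb in either direction had a median difference of 0.0577, and 60.1% were higher in R320*. The enhancer at DSP, the desmosomal protein desmoplakin (7579474 to 7581592), gave EEF1E1 1.39 in R320* and 2.04 in WT, and the readthrough RNA 1.66 and 1.97. The promoter of TXNDC5, a disulfide isomerase of the endoplasmic reticulum (7908679 to 7912370), gave EEF1E1 1.64 in R320* and 2.40 in WT, and the readthrough RNA 2.27 and 2.45. With differences averaged over the RNAs listed in both genotypes, these were the largest negative differences after the chosen enhancer.

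BMP6, a secreted signalling protein of the bone morphogenetic family, lies in the same stretch, and the pair met 6 elements there. Its promoter (7725594 to 7726588) had the fifth highest mean score of the pair's elements. EEF1E1 scored 2.70 in R320* and 2.37 in WT at that promoter, and the readthrough RNA 2.70 and 2.57. At the enhancer beside it (7731148 to 7732616) the 2 RNAs went opposite ways, since EEF1E1 scored 2.32 in R320* and 2.01 in WT, and the readthrough RNA 1.47 and 2.12. At the other 4 BMP6 enhancers EEF1E1 was listed in R320* only, with scores of 1.22, 1.49, 2.15 and 2.55 in order along the chromosome. The readthrough RNA was listed there in both genotypes and scored lower in R320* at each, for example 2.22 in R320* and 2.61 in WT at the last of them (7706272 to 7707091).

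Upstream, 3 elements between 100 kb and 1 Mb were met, the chosen enhancer and a pair of elements near SLC35B3, which carries the sulfate donor PAPS into the Golgi. At both of the elements near SLC35B3 the scores were higher in R320*. At the SLC35B3 promoter (8433040 to 8436558), EEF1E1 scored 1.95 in R320* and was not listed in WT, and the readthrough RNA scored 1.94 and 1.32. At the AL355499.2 enhancer (8442127 to 8442637), EEF1E1 scored 1.88 in R320* and was not listed in WT, and the readthrough RNA scored 1.83 and 1.23. No element of the pair lay in the next 1692 kb, a stretch with 5 elements in the table.

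Over 1 Mb from the gene in either direction, the pair met 35 of 2345 elements, 17 in both genotypes. Downstream, towards LY86 and NRN1, there were 10 elements in R320* and 17 in WT. Upstream, towards TFAP2A and TMEM14B, there were 14 in R320* and 11 in WT. The highest of the elements in WT only was an enhancer of the noncoding gene AL158817.1 (6926738 to 6931955), where the readthrough RNA scored 2.11. The promoter of SYCP2L, a relative of a meiotic chromosome protein (10885669 to 10889185), followed at 1.95 and a further AL158817.1 enhancer (6905893 to 6907289) at 1.90. In R320* only were the AL138720.1 enhancer (14636115 to 14643379, 6534 kb from the gene) at 1.80, the promoter of the ribosome biogenesis gene PAK1IP1 (10693157 to 10696859) at 1.72, and the LY86 enhancer (6652681 to 6664311) at 1.78 for EEF1E1 and 1.48 for the readthrough RNA. The largest positive difference was at the LINC00518 enhancer (10429932 to 10430723), where EEF1E1 scored 2.08 in R320* and was not listed in WT, and the readthrough RNA scored 2.16 and 1.49.

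**Figure D3:**
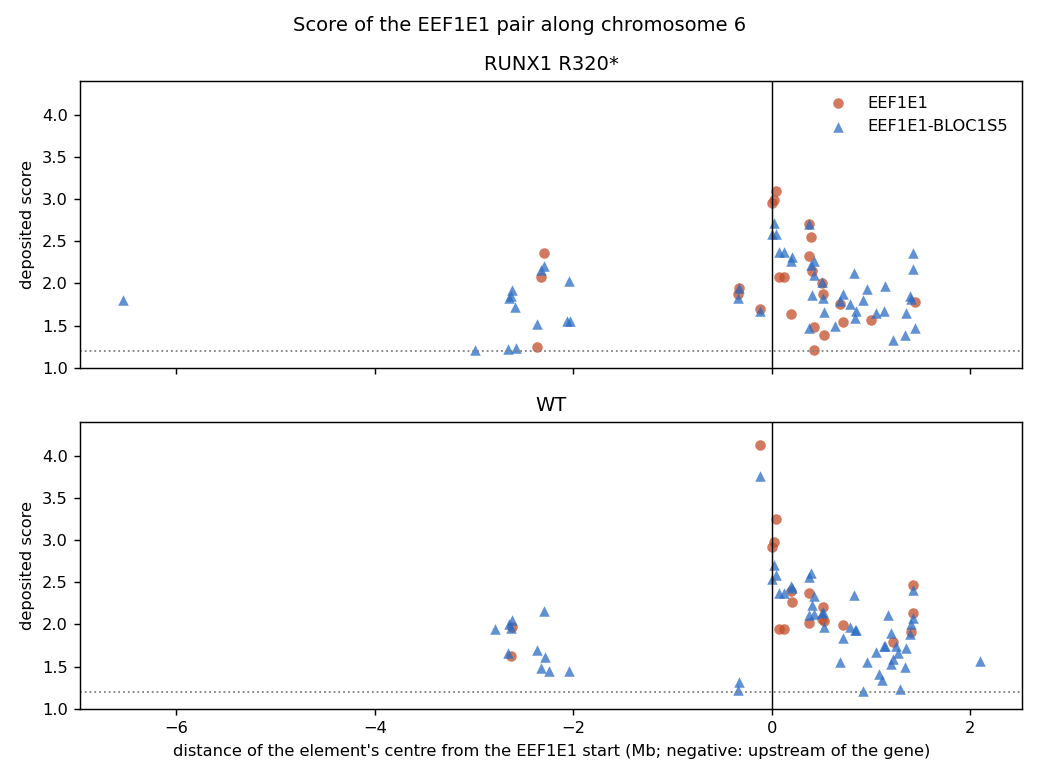
Deposited score of EEF1E1 (circles) and EEF1E1-BLOC1S5 (triangles) by distance of the element from the EEF1E1 start in Mb, for R320* above and WT below. The dotted line is the lowest listed score of 1.2, and the points at 4.13 and 3.76 in WT, just upstream of the gene, stand at 1.70 and 1.68 in R320*.

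The pair shared 31 elements. EEF1E1 met 1 more, the promoter of the zinc finger gene RREB1 (7105758 to 7109186, 1.57 in R320*), and the readthrough RNA 34 more, of which 15 were in both genotypes, 7 in R320* only and 12 in WT only. Where both RNAs were listed, their scores were centred on each other, with a median of EEF1E1 minus readthrough of 0.00346 over 24 elements in R320* (from -1.05 to 0.858) and 0.00418 over 20 elements in WT (from -0.427 to 0.673). All 7 elements that EEF1E1 had in WT only were listed in both genotypes for the readthrough RNA, and so were 10 of its 12 in R320* only. Of the 13 elements in both genotypes for both RNAs, 10 differed in the same direction. The whole EEF1E1 gene, 29189 bp, lies inside the readthrough gene, and the sources used here do not say how reads of the overlap were assigned. The enhancers at BLOC1S5-TXNDC5 (7974402 to 7976411) and BLOC1S5 (8028508 to 8030008), 52.1 kb apart, carried the same scores to the last digit. EEF1E1 had 2.07 in R320* and 1.94 in WT at both, and the readthrough RNA 2.38 and 2.37 at both. Such repeats made up 2.09% of connections in both genotypes. These 2 elements are counted above as separate elements, so their shared scores enter the pair's counts and medians at each of them.

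AARS RNA had its highest scores on the promoters either side of its gene rather than on the gene itself. The DDX19B promoter (chromosome 16, 70298884 to 70299566, 9.38 kb upstream), at a gene for a DEAD-box helicase of mRNA export, scored 3.77 in R320* and 3.64 in WT. The promoter of EXOSC6, a core subunit of the RNA exosome (70249374 to 70251976), ends 0.322 kb beyond the 3′ end of AARS and scored 3.53 in R320* and 3.56 in WT. Inside the gene the AARS enhancer (70256961 to 70262299) scored 2.62 in R320* and 2.54 in WT, and the AARS promoter (70287223 to 70290457) 2.49 and 2.37. At all 4 of these elements AARS was the top-scoring RNA in both genotypes. A further enhancer inside AARS (70267795 to 70268766) was not listed for AARS RNA in either genotype. Scores above those on the gene were not particular to AARS. SF3B3 RNA scored 3.80 in R320* and 3.89 in WT at the SF3B3 promoter just outside its gene. On its gene SF3B3 RNA had 2.54 and 2.56 at an enhancer, and 2.40 and 2.36 at the COG4 promoter. EEF1E1 RNA scored 3.10 in R320* and 3.26 in WT at the BLOC1S5 promoter outside its gene, against 2.99 and 2.98 at the enhancer inside it. For CARS RNA the top scores on and off the gene were nearly level. They were 3.08 in R320* and 3.04 in WT at the enhancer on its gene, and 3.03 and 3.08 at the AC131971.1 promoter outside it.

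All 6 elements within 100 kb were met in both genotypes, and 3 were higher in R320*. Between 100 kb and 1 Mb upstream, AARS was higher in R320* at 6 of 7 elements in both genotypes, with a median difference of 0.325 (from -0.0425 to 0.610). The largest of them was at the promoter of FCSK, fucose kinase (70453455 to 70456345), with 1.92 in R320* and 1.31 in WT. Nearer the gene, at the promoter of DDX19A, the paralogue of DDX19B (70345519 to 70348169, 56.0 kb upstream), AARS scored 2.20 in R320* and 1.59 in WT. The enhancer of the sialyltransferase gene ST3GAL2 (70395629 to 70423238) scored 1.93 in R320* and 1.52 in WT. Lower in R320* were an enhancer at DDX19B (70332623 to 70333009), with 1.77 in R320* and 2.15 in WT, the AC012184.2 enhancer (70339786 to 70342329), with 1.76 and 1.86, and the promoter of the splicing factor gene SF3B3 (70577944 to 70578223), with 2.34 and 2.38. None of these differences reached 1 unit.

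Of the AARS elements listed in 1 genotype, most of those in WT only lay downstream of the gene. Downstream, AARS met 4 of 27 elements between 100 kb and 1 Mb, all of them in WT only. They were an enhancer and a promoter of WWP2, a ubiquitin ligase, at 1.74 (69861263 to 69867627) and 1.66 (69759809 to 69763470), the promoter of NOB1, the nuclease that matures the small ribosomal subunit, at 1.62 (69753083 to 69757004), and that of VPS4A, an ATPase of the ESCRT machinery, at 1.41 (69310605 to 69312594). Other RNAs were listed at these elements in R320*. NFAT5 RNA, from a transcription factor gene in that stretch, was listed at all 4 in both genotypes, with 1.48 in R320* and 1.33 in WT at the WWP2 enhancer, and 2.32 and 2.19 at the WWP2 promoter. Upstream, the enhancer of IL34, a ligand of the CSF1 receptor (70653906 to 70654810), was in R320* only at 2.17, and the VAC14 promoter (70747039 to 70748388) in WT only at 1.62. At the IL34 enhancer 3 RNAs were listed in R320* and 1 in WT. Over 1 Mb away AARS met 1 enhancer in each genotype, SMG1 in R320* (1.46, 51383 kb away) and CDH1 in WT (1.30).

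**Figure D4:**
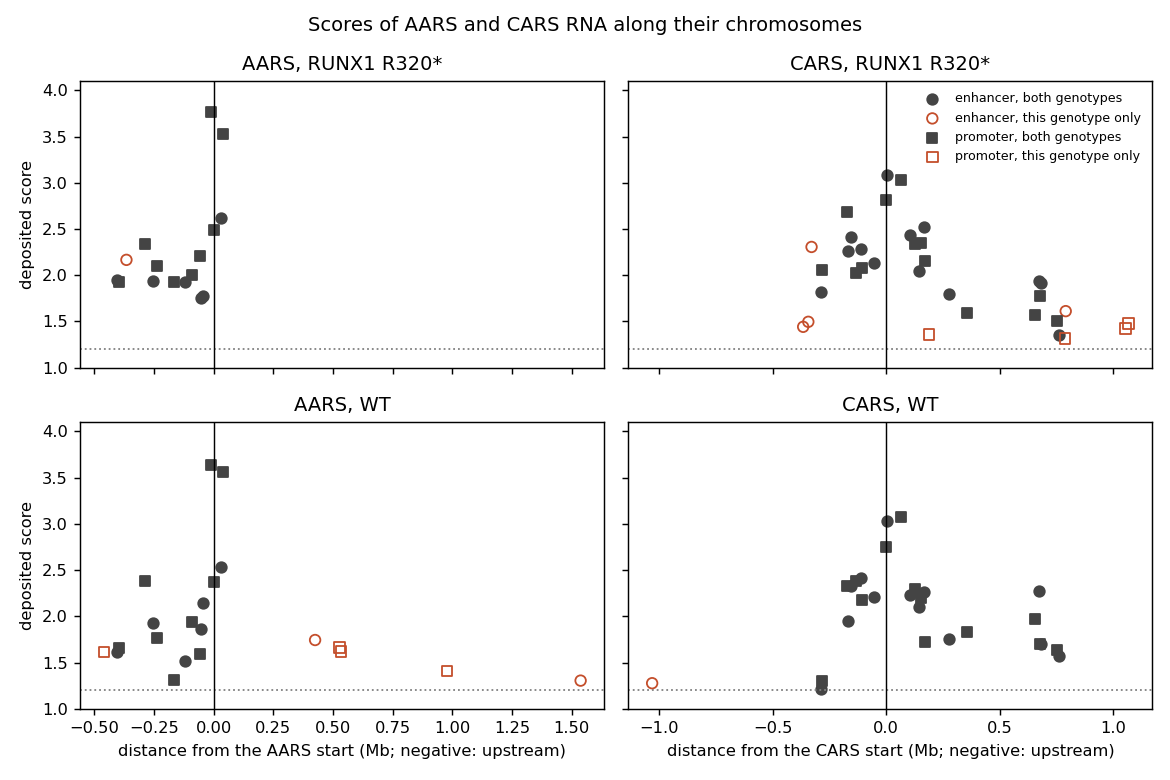
Deposited score of AARS (left) and CARS (right) by distance of the element from the gene's start in Mb, R320* above and WT below; circles are enhancers, squares promoters, and open symbols are listed in that genotype only. The plotted AARS elements downstream of the gene and more than 100 kb from it are in WT only, 3 ZNF195 enhancers upstream of CARS are open in R320*, and the SMG1 enhancer of AARS, downstream, in R320* only and 51383 kb away, is outside the plotted range.

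CARS lies next to the imprinted genes of the short arm of chromosome 11, and its RNA met elements across them. Its top scores were on its own gene and just downstream of it and were nearly equal in both genotypes. At the CARS enhancer (3051360 to 3053111) it scored 3.08 in R320* and 3.04 in WT, at the AC131971.1 promoter (2987573 to 2993909, 7.02 kb downstream) 3.03 and 3.08, and at the CARS promoter (3055763 to 3059518) 2.81 and 2.75. Within 100 kb it met 6 of 8 elements, all in both genotypes, 3 higher in R320* and 3 lower. Among them were the promoters of PHLDA2, an imprinted regulator of placental growth (2928083 to 2931301), with 2.34 in R320* and 2.30 in WT, and of SLC22A18, a transporter gene (2901561 to 2903248), with 2.34 and 2.20.

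Further downstream the scores dropped while differences went both ways. The promoter of CDKN1C, an imprinted inhibitor of the cell cycle (2883760 to 2886632), scored 2.15 in R320* and 1.72 in WT, and the SLC22A18AS enhancer next to it (2889856 to 2893031) 2.52 and 2.27. The promoter of TSSC4, a factor of spliceosome assembly (2399058 to 2402313), scored 1.57 in R320* and 1.97 in WT. An enhancer of CD81, a membrane tetraspanin (2383214 to 2384938), scored 1.94 in R320* and 2.28 in WT. Over the 10 downstream elements in both genotypes, 5 were higher in R320* and 5 lower (median difference -0.0436). In R320* only were 4 elements of this stretch. They were an ASCL2 enhancer (2265819 to 2266094) at 1.61, the H19 promoter (2001891 to 2002210) at 1.43, the KCNQ1DN promoter (2867465 to 2868808) at 1.36 and the ASCL2 promoter (2268853 to 2270832) at 1.32. None was in WT only.

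Between 100 kb and 1 Mb upstream of CARS, 8 elements were listed in both genotypes, 5 higher in R320* and 3 lower. The largest differences were at ZNF195, a zinc finger gene whose promoter lies 278 kb away. CARS RNA met 5 elements there in R320* and 2 in WT. The promoter (3335150 to 3342475) scored 2.06 in R320* and 1.30 in WT, a difference of 0.761 and the largest of CARS, and the nearest enhancer (3345097 to 3346493) 1.82 and 1.22. The other 3 enhancers were in R320* only, at 2.31 (3385854 to 3386412), 1.496 (3389599 to 3411144) and 1.44 (3416696 to 3429446). RNA of NUP98, a nuclear pore protein gene on the far side of ZNF195, scored 1.97 in R320* and 1.90 in WT at that promoter, and RNA of the histone chaperone gene NAP1L4 scored 1.66 in both. At the enhancer from 3385854 to 3386412, 9 RNAs were listed in R320* and 6 in WT. There NUP98 scored 2.20 in R320* and 2.12 in WT, and NAP1L4 2.13 and 1.84. At the last of the enhancers both of these RNAs were listed in WT only, with 1.63 for NUP98 and 1.41 for NAP1L4. The promoter of MRGPRE, an orphan receptor (3231528 to 3232292), scored 2.68 in R320* and 2.32 in WT, and that of AC108448.1 (3188913 to 3189192) 2.03 and 2.38. Over 1 Mb away CARS met the MRPL23-AS1 promoter (1987949 to 1989500) in R320* only at 1.48, an element met by 7 RNAs in R320* and 1 in WT. The 1 element in WT only was an enhancer of STIM1, a calcium sensor (4088461 to 4088865), at 1.28.

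Median scores were lower at 100 kb to 1 Mb than on the gene for the pair, AARS and CARS, as over all RNAs. On the gene the pair had median scores of 2.81 in R320* and 2.79 in WT, and at 100 kb to 1 Mb 1.80 and 2.03. AARS had 2.55 and 2.46 on the gene, and 1.94 and 1.64 at 100 kb to 1 Mb. CARS had 2.95 and 2.89 on the gene, and 1.82 and 1.89 at 100 kb to 1 Mb. Over all RNAs with a position the medians were 2.32 and 2.29 on the gene, 2.18 and 2.13 under 100 kb, 1.79 and 1.74 up to 1 Mb, and 1.503 and 1.487 beyond. The share of connections in both genotypes over all RNAs was 82.6% on the gene, 79.7% under 100 kb, 61.1% up to 1 Mb and 27.0% beyond. Of the pair's 66 elements 35 lay over 1 Mb away, against 2 of 23 for AARS and 2 of 35 for CARS. Connections listed in 1 genotype scored nearer the minimum of 1.2 than those in both. Those in R320* only had medians of 1.56 for the pair, 1.81 for the 2 of AARS and 1.46 for CARS, against 1.86, 2.00 and 2.10 in R320* for those in both. Those in WT only had 1.59 for the pair, 1.62 for AARS and 1.28 for the 1 of CARS, against 2.00, 1.93 and 2.19 in WT for those in both. The part of the minimum in these listings was not tested.

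Other RNAs of the same chromosomes met many of the same elements. The RNAs most alike by the Jaccard index (shared elements over all elements of both RNAs, genotypes joined, and EEF1E1 and the readthrough RNA not set against each other) came from genes of the same chromosome in each case. For the readthrough RNA they were SSR1 (0.423, 33 shared elements), RREB1 (0.398, 33) and SYCP2L (0.262, 34), and for EEF1E1 they were SSR1 (0.238, 15), RREB1 (0.221, 15) and TMEM14B (0.174, 16). SSR1 encodes a subunit of the translocon-associated complex. For AARS they were SF3B3 (0.548, 17), ST3GAL2 (0.385, 20) and NFAT5 (0.233, 14), and for CARS NAP1L4 (0.596, 31), the imprinting-linked noncoding RNA KCNQ1OT1 (0.468, 29) and NUP98 (0.219, 16). The 17 shared elements were 73.9% of those of AARS and 68.0% of those of SF3B3, and the 31 were 88.6% of those of CARS and 64.6% of those of NAP1L4.

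At shared elements the most alike RNAs had the following differences. Over the 21 elements that the readthrough RNA and SSR1 shared in both genotypes, the median difference was -0.0731 for the readthrough RNA and 0.0543 for SSR1. Over 15 elements shared in both, AARS had a median of 0.117 and SF3B3 of 0.0366. Over 25 such elements CARS had 0.0442 and NAP1L4 0.0541. An RNA of the pair was the top-scoring RNA at 23 of its 54 elements in R320* and 22 of 57 in WT. AARS was on top at 5 of 17 in R320* and 4 of 21 in WT, and CARS at 9 of 34 and 9 of 27. The median number of RNAs per element was 5 for the pair's elements, 4 for those of AARS and 4 for those of CARS, against 2 for all 33948 elements. An element met by many RNAs is more likely to be among those of any given RNA. The higher medians therefore cannot show that these elements are unusual. EEF1E1 and the readthrough RNA were also counted separately where both met an element.

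Other RNAs of the same enzymes were read from lists by family. Over all 2137 RNAs listed in both genotypes, 1244 had more connections in R320*, 719 had fewer and 174 had the same number. The other 500 of the 2637 RNAs were listed in 1 genotype only, 273 in WT and 227 in R320*. Of 11 genes of the multi-synthetase complex 6 were measured, of which 2 had more connections in R320*, 3 had fewer and 1 was listed in 1 genotype (median log2 ratio -0.08). Leucyl-tRNA synthetase RNA, LARS, met 42 elements in R320* and 61 in WT. The bifunctional glutamyl-prolyl enzyme's RNA, EPRS, met 19 and 31. IARS met 35 in R320* and 37 in WT, and DARS 18 and 17. MARS, for the methionyl enzyme, met 0 in R320* and 32 in WT. MARS lies on chromosome 12, where 3 RNAs were in R320* only and 66 in WT only, and the part of the chromosome in this listing was not tested.

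Of 13 cytosolic synthetases outside the complex 8 were measured, AARS and CARS among them, 5 with more connections in R320* and 3 with fewer (median log2 ratio 0.10), close to the balance over all RNAs. Glycyl-tRNA synthetase RNA, GARS, met 43 elements in R320* and 54 in WT, and threonyl TARS 31 and 21. FARSB, a subunit of the phenylalanyl enzyme, met 51 in R320* and 39 in WT. SARS met 55 and 54, WARS 28 and 33, and YARS 46 and 41. Of 17 mitochondrial synthetases 4 were measured. FARS2 met 74 elements in R320* and 64 in WT, LARS2 38 and 34, NARS2 41 and 34, and RARS2 21 and 22. Of the 15 other synthetase and complex RNAs, MARS apart, none differed by 2-fold, and their median log2 ratio was 0.05, against 0.09 for all RNAs listed in both genotypes. Of their 399 connections in both genotypes, 1 differed by at least 1 unit, and the median difference was 0.0371. Of their 717 connections 29 were in trans, all of them from LARS (16), FARS2 (10) and IARS (3).

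The synthetase genes were also targets. The 2 elements of EEF1E1 received 7 connections in R320* and 11 in WT, from 7 RNAs, the 3 elements of AARS 9 and 8 from 6 RNAs, and the 2 of CARS 9 and 6 from 5 RNAs. At the CARS elements NUP98 and CELF1 RNAs were in R320* only, with 1.66 and 1.39 at the enhancer and 1.56 and 1.54 at the promoter. At the EEF1E1 enhancer SSR1, TMEM14B and SYCP2L RNAs were in WT only, with 1.46, 1.66 and 1.71.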

How the data were processed

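Contacts of RNA with chromatin were measured by GRID-seq in 4 K562 libraries, 2 of RUNX1 R320* and 2 of WT, with groups taken from the labelled genotype. The tools used upstream were cutadapt 1.12, BWA and bedtools, with the hg38 build, per the submitters' processing notes. The authors deposited 1 table with a score per connection and genotype, pooled over libraries; the sources used here do not give its computation, its scale or how libraries were pooled. A score of 0 was read as not listed. The deposited column of score differences is R320* minus WT. Since no value per library was used, no test was made, and depth and its precision are unknown.

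The members and gene lists were chosen with earlier results of these data known. Connection numbers were compared as log2 ratios and scores as differences, with 1 unit or 2-fold as the size named. Both call rules were run on simulated data with planted changes larger than the sizes named, which checks the code and says nothing of the genotypes. For the pair, scores were averaged per element and genotype over those of the 2 RNAs listed there. The pair's difference was averaged per element over those of the 2 RNAs listed in both genotypes. It can therefore depart from the difference of the averaged scores. Distances run from the nearest end of the gene, placed with RefSeq (GRCh38.p14) by symbol for 2502 of 2637 RNAs, 75 by an older symbol. Coordinates count from 1. Named elements were, per RNA (the pair as 1), the 5 with the highest mean score, the 3 with the largest difference in each direction and the 3 highest listed in 1 genotype, and the 3 RNAs with the largest Jaccard index. Other named elements and RNAs were chosen after their values were seen. Alternatives tried were a minimum score of 1.5, merging elements within 1 Mb, each element kind and block of elements (20020 with a median of 3081 bp, 13928 with 762 bp), each RNA of the pair alone, centring, means and distance from the gene's middle. Python 3.11.15, pandas 2.3.3 and numpy 2.4.6 were used. Some members' sequences and some listed genes are not reported here.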

Additional observations from a re-analysis of the deposited data

How the results depend on the processing

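Of 48 alternative values, 44 stayed within 1.5-fold (ratios), 1 SD over connections (differences) or the Wilson 95% interval (shares) of the values given, and 4 moved. With elements within 1 Mb merged into regions, the log2 ratio of the pair was 0.58 (3 regions in R320* and 2 in WT, against -0.08), that of AARS was 1 (2 regions and 1, against -0.30), and the share of CARS regions in both genotypes was 100% (1 of 1, against 74.3%). With only the shorter block of elements the ratio of AARS was 0.58 (3 in R320* and 2 in WT). Such small numbers come from the merging or the split itself. The 44 are no measure of robustness. Keeping only the RNA's own chromosome could not move any value, since all connections of these RNAs lay there. For differences, 1 SD (0.268 to 0.445) was larger than each median difference, so even a change of sign could pass. The log2 ratio of the pair also changed sign, within 1.5-fold, with a minimum of 1.5 (0.03), promoters only (0.08), longer elements only (0.08) and EEF1E1 alone (0.32), so no direction can be given to its number of connections. The mean score difference of the pair was -0.0776, and without the enhancer at AL355499.1 it was -0.0279 (median -0.0783), an alternative chosen after seeing the data. No paired analysis was possible because the table pools the libraries of each genotype, and for the same reason leaving out a replicate was not run. Unknown depth limits every listing near the minimum score.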

Other observations

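RNAs of genes for tRNA modification and transport, which finish and export the tRNAs that synthetases load, were measured for 12 of 42 genes of a list. There were 8 with more connections in R320*, 2 with fewer and 2 listed in 1 genotype, with a median log2 ratio of 0.34, against 0.09 for all 2137 RNAs listed in both genotypes, of which 1244 had more connections in R320* and 719 fewer. Of all 2637 RNAs, 500 were listed in 1 genotype only. TRMT11, a tRNA methyltransferase subunit, met 54 elements in R320* and 35 in WT. TRIT1, which adds an isopentenyl group to tRNA, met 53 in R320* and 33 in WT, and ELP2, of the Elongator complex, 25 and 15. ELP3, of the same complex, met 20 in R320* and 22 in WT. XPOT, the tRNA export receptor, met 0 in R320* and 21 in WT and lies on chromosome 12, while ELP4 met 76 in R320* and 0 in WT. CDKAL1, a tRNA methylthiotransferase, met 206 in R320* and 182 in WT, and 312 of its 319 connections were in trans. None of the 10 listed in both genotypes differed by 2-fold, and no difference has a test.

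Of 10 genes for translation elongation factors and their regulators 3 were measured. EEFSEC, the selenocysteine elongation factor, met 31 elements in R320* and 21 in WT. EEF2K, the kinase of the elongation factor EEF2, met 14 in both, and EEF2 itself 4 in both.

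At the promoters and enhancers of other synthetase genes, connections also ran both ways. The 2 elements of GARS received 13 connections in R320* and 22 in WT, the 2 of KARS 6 and 11, and the 1 of RARS 0 and 4. The 2 elements of HARS received 16 in R320* and 12 in WT, the 3 of NARS2 13 and 8, and the 2 of CARS2 7 and 3. These examples were picked with their values in view.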
